A study of Mus musculus with 4 samples.

Results

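The basement membrane genes examined here are Col4a1, Col4a2, Col15a1, Col18a1, Lama4, Lamb1, Lamc1, Nid1, Nid2 and Hspg2, 10 of the 22180 genes that the array table resolves. They were taken by name: a probe set counted for a gene when the platform annotation paired it with that symbol alone, and a gene with several probe sets was read from the brightest, by its average on the 4 arrays. This gave 11 probe sets for the 10 genes, with Nid1 the one gene that had 2. All 10 passed the filter on dim genes, which kept 12458 genes with a mean of at least the median probe set.

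A basement membrane is a thin sheet of matrix on which epithelial, endothelial and muscle cells rest. Laminins form one network at the cell surface, collagen IV forms a second, and nidogens and the heparan sulfate proteoglycan perlecan link the networks. The healthy liver sinusoid is known for lacking a continuous basement membrane, and deposition of collagen IV and laminin along the sinusoids accompanies liver fibrosis.

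RNA came from livers of male mice, either wild type (WT) or carrying a knockout (KO) of Nrg4, which encodes neuregulin 4, a secreted hormone-like relative of epidermal growth factor that binds ErbB receptors. Both genotypes ate a NASH diet (Research Diets D09100301), which produces non-alcoholic steatohepatitis, for 20 weeks, beginning when they were 3 months old, and the animals had free access to food before the livers were collected. Pooled RNA was hybridised to Affymetrix Mouse Gene ST 2.1 arrays, 1 pool an array and 2 pools for each genotype. The sources used here state neither how many animals made up a pool nor in which cells Nrg4 was deleted, and no group on another diet was analysed here. The comparison asks how loss of Nrg4 alters hepatic expression of basement membrane components during steatohepatitis.

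All values are the authors' log2 levels, on a scale whose zero point is unknown, with array medians between 0.52 and 0.64. Nrg4 itself stood at 2.54 (WT pool 1) and 2.30 (WT pool 2) against 0.93 in either KO pool, a difference of -1.49 ± 0.20 (SE; limma, adjusted p = 0.181). The hepatocyte marker Alb was high on every array (between 10.7 and 10.9), while Ass1, another such marker, was between 1.56 and 2.74. Because p-values rest on 2 pools a genotype, they measure the spread between pools and not between animals. In limma each gene's variance is also drawn toward that of all tested genes, with 3.67 prior against 2 residual degrees of freedom. An SE or p from limma is therefore not that gene's own spread alone.

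Col4a1 and Col4a2 encode the α1 and α2 chains that assemble together into the most widespread form of collagen IV. The genes lie head to head on opposite strands, and their promoters are shown because this shared start region is the structural feature that joins the 2 members. The windows run from 250 bases before to 50 bases after the annotated start, from RefSeq on build GRCm38.p6. Col4a1 lies on the minus strand at chr8:11312777-11313076 and Col4a2 on the plus strand at chr8:11312555-11312854. Capitals mark the 78 bases that both windows hold, which in the Col4a2 window are the reverse complement of those in the Col4a1 window.
Col4a1: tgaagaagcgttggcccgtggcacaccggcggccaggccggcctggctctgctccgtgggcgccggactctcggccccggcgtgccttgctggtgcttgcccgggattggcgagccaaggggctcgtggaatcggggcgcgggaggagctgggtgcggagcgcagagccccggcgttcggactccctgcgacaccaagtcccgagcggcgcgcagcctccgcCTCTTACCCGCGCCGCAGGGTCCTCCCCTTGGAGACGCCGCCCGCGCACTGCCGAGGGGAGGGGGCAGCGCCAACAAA
Col4a2: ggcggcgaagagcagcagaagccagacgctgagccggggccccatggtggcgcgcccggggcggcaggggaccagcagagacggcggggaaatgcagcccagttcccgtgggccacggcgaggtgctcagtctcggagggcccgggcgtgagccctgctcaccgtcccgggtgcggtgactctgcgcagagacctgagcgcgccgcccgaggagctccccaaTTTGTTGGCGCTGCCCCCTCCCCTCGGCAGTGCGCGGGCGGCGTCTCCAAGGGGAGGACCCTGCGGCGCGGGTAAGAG

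The windows of another pair are shown because their measurements, described below, differ: Nid1, the member with the lowest adjusted p when the variance was let follow intensity, and Col18a1, the one member that was lower in KO. The Nid1 window lies at chr13:13437352-13437651 on the plus strand. Col18a1 has 2 annotated starts, and the one printed lies upstream at chr10:77166481-77166780 on the minus strand. Which of its starts the measured transcripts used was not examined. In this pair capitals mark the GC box GGGCGG and the CCAAT box CCAAT, each searched on both strands.
Nid1: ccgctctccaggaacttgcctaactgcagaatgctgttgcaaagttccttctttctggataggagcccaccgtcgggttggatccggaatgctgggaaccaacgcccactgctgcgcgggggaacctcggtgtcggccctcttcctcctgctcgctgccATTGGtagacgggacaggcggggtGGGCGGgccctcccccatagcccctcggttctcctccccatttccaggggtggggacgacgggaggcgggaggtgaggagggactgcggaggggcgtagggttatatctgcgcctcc
Col18a1: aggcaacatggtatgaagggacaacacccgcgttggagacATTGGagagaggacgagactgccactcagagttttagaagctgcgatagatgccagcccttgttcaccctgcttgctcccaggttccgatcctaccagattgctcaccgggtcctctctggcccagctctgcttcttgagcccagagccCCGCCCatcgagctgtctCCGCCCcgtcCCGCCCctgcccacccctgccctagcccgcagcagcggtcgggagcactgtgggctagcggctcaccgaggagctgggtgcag

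RefSeq windows were matched for 7 of the 10 members, 8 windows in all. Lama4, Lamc1 and Nid2 had no entry. GGGCGG occurred in 35.7% of the 32851 promoter windows of this length and CCAAT in 37.4%. The search also covered TATAAA, found in 13.6% of windows, and TGANTCA, the AP-1 motif, found in 7.81%; none of the 4 motifs contains another. Neither TATAAA nor TGANTCA was present in any member window. The 78 shared bases of Col4a1 and Col4a2 held 1 GC box. The whole Col4a1 window held 1 GC box and 1 CCAAT box at a GC content of 74.0%, and that of Col4a2 held 3 and 1 at 73.7%, against a median of 52.7% over all windows. The Hspg2 window held 5 GC boxes, while the Col15a1 window and the second Col18a1 window held neither box. These matches describe letters and were not tested against expression.

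Of the 10 members, 9 were higher in the KO pools and Col18a1 was lower, where 51.6% of all tested genes had a difference above 0. The median difference was 0.66 on the log2 scale, beside 0.01 over all tested genes. The members were chosen with earlier results of these data known, so the values over all genes are given for scale only. In 7 members both KO pools lay above both WT pools, an arrangement found in 22.2% of tested genes. In Col18a1 both KO pools lay below both WT pools, as in 19.5% of tested genes, and in Lamc1 and Nid2 the genotypes overlapped. These counts include Col15a1, which passed the filter on dim genes only through its KO pools. No member passed an adjusted p of 0.05 in limma, where 0.0482% of genes did, so every difference below is given as a value with its error. At an unadjusted p under 0.05 there were 6 members, all higher in KO, beside 6.37% of tested genes that were higher at that level. With arrays centred on their medians or quantile normalized it was 5 members, beside 4.88% and 5.72%, and 9 members remained above 0 in both cases. When the variance was allowed to follow intensity (limma's trend option), Nid1 passed, in a fit that called 0.393% of genes as higher in KO. In the same fit 4 members, not 6, were higher at an unadjusted p under 0.05, beside 6.38% of tested genes, since Lama4 and Hspg2 missed that level. In bulk liver RNA, more cells of a type and more RNA per cell cannot be told apart.

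**Figure D1:**
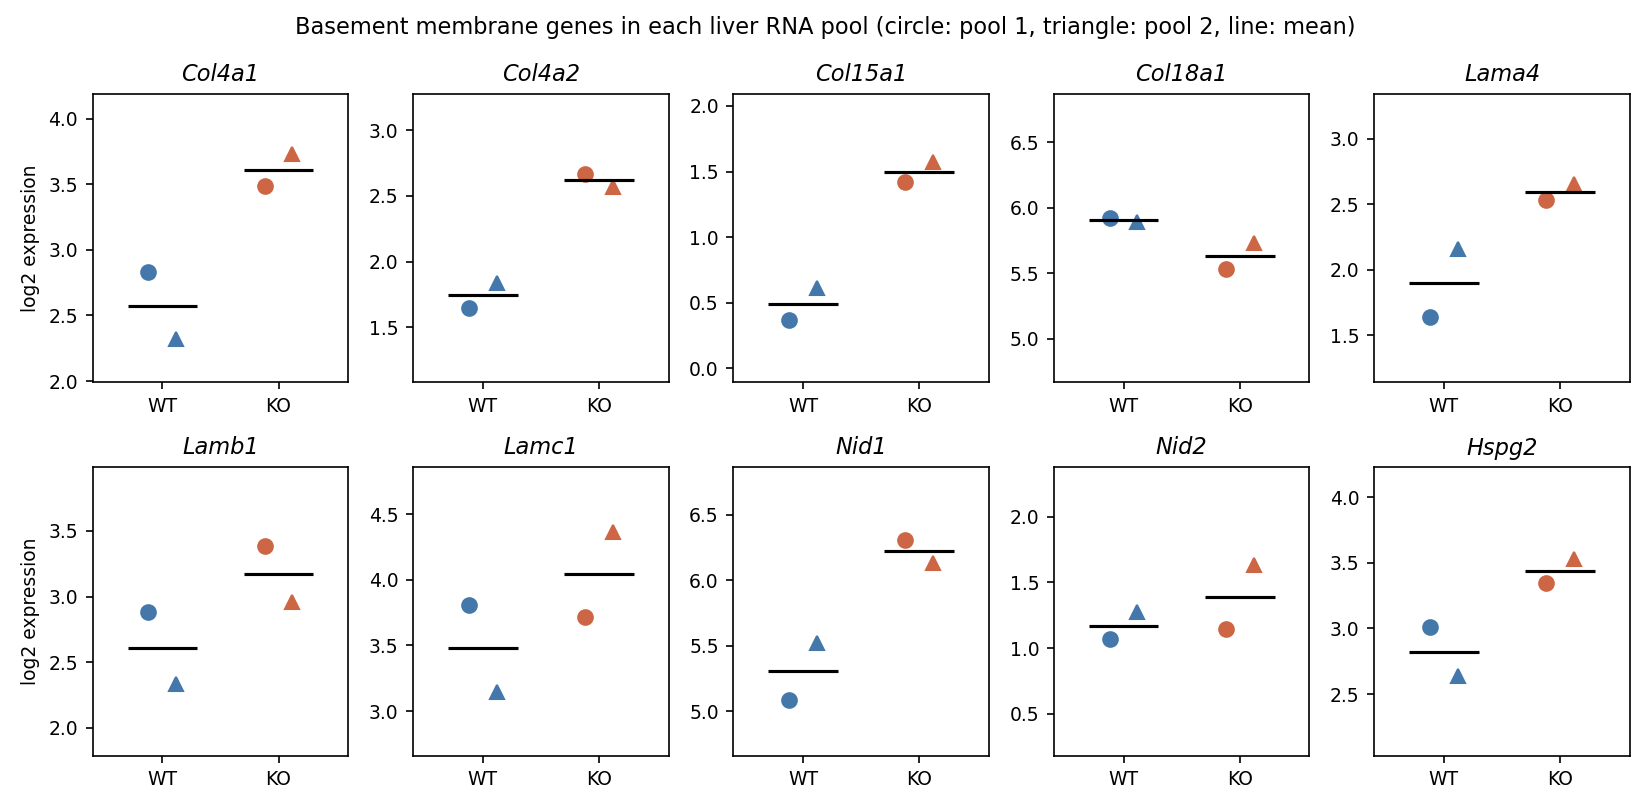
Log2 expression (vertical axis, each panel spanning the same range of log2 units) of the 10 basement membrane genes in the 2 WT and 2 KO pools, with circles for pool 1, triangles for pool 2 and a line at each mean. The KO points lie wholly above the WT points in 7 panels, wholly below in Col18a1, and overlap them in Lamc1 and Nid2.

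Transcripts of both collagen IV chains were higher in the KO pools. Col4a1 stood at 2.83 and 2.32 in WT and at 3.49 and 3.73 in KO, pool 1 being given first here and below. The lower KO pool was 0.65 above the higher WT pool, and the difference was 1.03 ± 0.25 (SE; limma, adjusted p = 0.312), or 2.05-fold. Col4a2 stood at 1.65 and 1.84 in WT and at 2.67 and 2.57 in KO. Again the genotypes did not overlap, with a difference of 0.87 ± 0.20 (SE; adjusted p = 0.297), or 1.83-fold. The 2 genes did not follow each other from pool to pool within a genotype: WT pool 1 was the higher WT pool for Col4a1 and the lower one for Col4a2. The log2 ratio of Col4a1 to Col4a2 was 0.16 higher in KO than in WT (95% interval -1.54 to 1.85; exact permutation p = 1.0, two-sided), an interval wide enough to hold unequal changes in either direction. In all, 5 pairs of members were compared in this way, and 2 pools against 2 cannot give an exact p below 0.333.

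The multiplexins Col15a1 and Col18a1, paralogous collagens with interrupted triple helices and a C-terminal fragment named restin in the first and endostatin in the second, went in opposite directions. Col15a1 stood at 0.37 and 0.62 in WT and at 1.42 and 1.57 in KO, and the lower KO pool was 0.81 above the higher WT pool. The difference was 1.01 ± 0.20 (SE; limma, adjusted p = 0.269). Its WT mean lay 0.05 below the median of the table, a level at which differences may be compressed, so no fold is given. Since its KO pools alone brought it past the filter, its place in the fit is not independent of its being higher there. Col18a1, which hepatocytes are known to express, stood at 5.92 and 5.89 in WT and at 5.53 and 5.73 in KO. The WT pools were 0.03 apart and the KO pools 0.20 apart, and the difference was -0.27 ± 0.20 (SE; adjusted p = 0.691) with a 95% interval of -0.76 to 0.21. Relative to its WT mean, the log2 ratio of Col15a1 to Col18a1 was at -0.14 and 0.14 in WT and at 1.31 and 1.26 in KO. Because the WT level of Col15a1 is that dim, this ratio is given as a description. It was 1 of the 5 pairs compared by permutation and adjusted together, but its p is not read here.

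The laminin chains Lama4, Lamb1 and Lamc1 can combine as the α4, β1 and γ1 chains of 1 trimer, a laminin of blood vessels and other mesenchymal tissue. All 3 were higher on average in KO, and in Lamc1 the pools of the genotypes overlapped. Lama4 stood at 1.64 and 2.16 in WT and at 2.53 and 2.65 in KO, without overlap, a difference of 0.70 ± 0.24 (SE; limma, adjusted p = 0.434). Lamb1 stood at 2.88 and 2.33 in WT and at 3.38 and 2.96 in KO. The gap between its nearest pools of different genotype was 0.07, narrower than either within-genotype gap, and the difference was 0.56 ± 0.28 (SE; adjusted p = 0.571). Lamc1, the γ1 chain shared by most laminins, stood at 3.81 and 3.15 in WT and at 3.72 and 4.37 in KO. Here KO pool 1 was below WT pool 1, and the gaps within WT (0.66) and within KO (0.65) both exceeded the genotype difference of 0.56 ± 0.33 (SE; adjusted p = 0.627). The ratio of Lamb1 to Lamc1 differed by -0.0012 between genotypes (95% interval -2.33 to 2.32; exact permutation p = 1.0). For Lama4 over Lamc1 it was 0.13 (-2.65 to 2.91; exact permutation p = 1.0), so these pools cannot tell whether the 3 chains moved by equal amounts.

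Nidogens bind the laminin γ1 chain and collagen IV and so link the laminin and collagen networks. Nid1 stood at 5.09 and 5.52 in WT and at 6.31 and 6.13 in KO. The KO pools were both higher, by 0.61 at the closest, and the difference was 0.91 ± 0.23 (SE; limma, adjusted p = 0.328), or 1.88-fold. With the trend option the adjusted p was 0.0481. Its second probe set, not used in the fit, stood at 3.72 and 3.68 in WT and at 4.14 and 4.78 in KO. There too both KO pools lay above both WT pools, and the means differed by 0.76. Nid2, the paralog, had a WT mean 0.63 above the median of the table, where differences may be compressed and ratios to Nid2 affected. It stood at 1.07 and 1.28 in WT and at 1.15 and 1.63 in KO. Its lower KO pool lay between the WT pools, and the difference was 0.22 ± 0.24 (SE; adjusted p = 0.809). The log2 ratio of Nid1 to Nid2 was 0.69 higher in KO, without overlap between genotypes (95% interval -0.80 to 2.19; exact permutation p = 0.333, and 0.833 adjusted).

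Hspg2 encodes perlecan, the heparan sulfate proteoglycan of basement membranes, which binds growth factors as well as laminin and collagen IV. It stood at 3.01 and 2.64 in WT and at 3.35 and 3.53 in KO. The KO pools were both higher, by 0.34 at the closest, and the difference was 0.62 ± 0.22 (SE; limma, adjusted p = 0.440), or 1.53-fold. Its profile was the closest of any member to the mean profile of the 10.

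**Figure D2:**
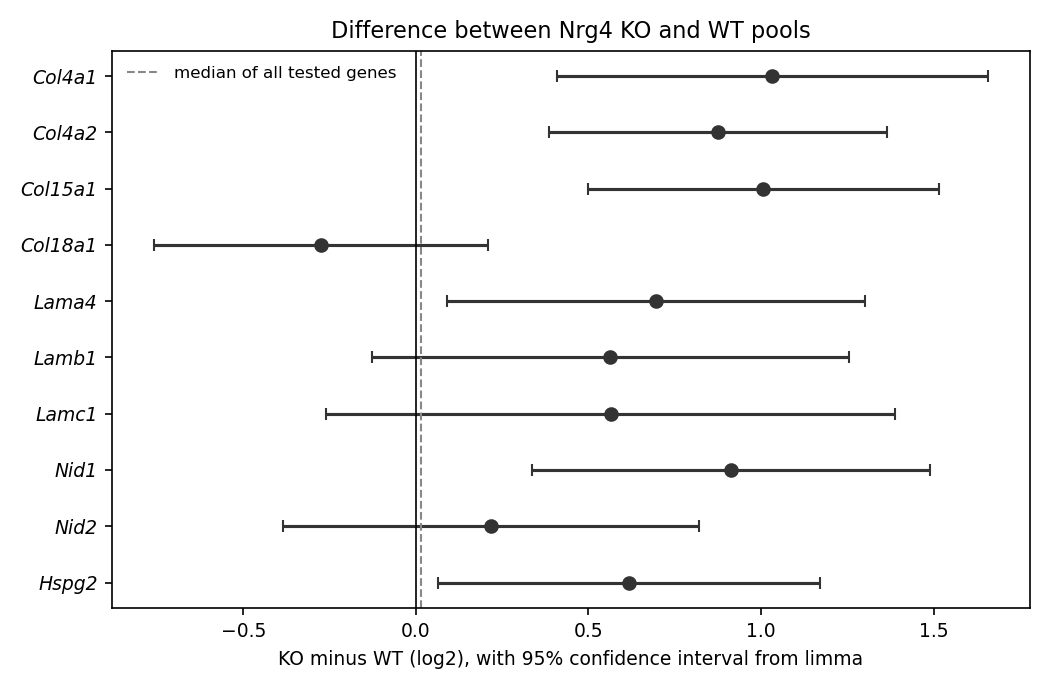
Difference KO minus WT on the log2 scale (horizontal axis) for each member, with 95% confidence intervals from limma as bars, a solid line at 0 and a dashed line at the median of all tested genes. Intervals of Col4a1, Col4a2, Col15a1, Lama4, Nid1 and Hspg2 lie above 0, and those of Col18a1, Lamb1, Lamc1 and Nid2 include it; the intervals are not adjusted for the number of genes.

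Averaged over the 10 members, the log2 level was 2.83 and 2.77 for WT and 3.35 and 3.49 for KO. No single pool was high or low for all members. WT pool 1 exceeded WT pool 2 in 5 of the 10, and KO pool 2 exceeded KO pool 1 in 7. The members that separated most cleanly, measured by the gap between the nearest pools of different genotype, were Col4a2 (0.73), Col4a1 (0.65) and Nid1 (0.61), leaving aside Col15a1 with its dim WT pools.

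The remaining basement membrane chains gave a mixed picture. Of 12 on the array, 7 were tested, since the minor collagen IV chains Col4a3, Col4a4, Col4a5 and Col4a6 and the laminin chain Lamc3 were below the filter. None of the 7 passed in limma, and 2 had an unadjusted p under 0.05. In KO 4 were higher and 3 lower, and the median was 0.31. The 3 lower ones were dim: KO means of Lama1, Lama3 and Lamb3 lay 0.02, 0.33 and 0.13 above the median of the table. Among the higher ones, Lama5 had a WT mean 0.03 above it. At such levels differences may be compressed. Lama1, Lama3 and Lama5 were picked after their values were seen. Agrn, which encodes the proteoglycan agrin, stood at 2.72 and 2.86 in WT and at 3.48 and 3.72 in KO, a difference of 0.81 ± 0.20 (SE; limma, adjusted p = 0.320). Lama2, the laminin α2 chain best known from muscle, was at 0.77 ± 0.25 (SE; adjusted p = 0.410). Lamb3, a chain of the laminin of skin epithelium, went the other way at -0.65 ± 0.28 (SE; adjusted p = 0.524), and its pools did not overlap.

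Proteins that associate with basement membranes had a median of 0.26 over 11 tested genes, 9 higher and 2 lower. None passed in limma, and 3 were higher at an unadjusted p under 0.05. Pxdn, the peroxidase that crosslinks collagen IV through sulfilimine bonds, stood at 1.99 and 2.03 in WT and at 3.17 and 2.67 in KO, a difference of 0.91 ± 0.24 (SE; limma, adjusted p = 0.335). Ntn4, a netrin that binds laminin γ chains, was at 0.72 ± 0.25 (adjusted p = 0.428), and Smoc2, a SPARC family protein, at 0.97 ± 0.37 (adjusted p = 0.472), with WT pools 2.93 and 1.87. Sparc, the founding member of that family, picked after its value was seen, was at 0.09. Smoc1, also picked later, was lower at -0.47, with both KO pools below both WT pools.

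Genes for collagen folding and secretion were balanced, with 7 of 12 tested genes higher, 5 lower and a median of 0.03, which was -0.02 with arrays centred on their medians and 0.07 with quantile normalization. None passed in limma, and 1 was higher at an unadjusted p under 0.05. Serpinh1, the collagen chaperone HSP47, was at 0.60 ± 0.24 (SE; limma, adjusted p = 0.483). Mia3, the cargo receptor TANGO1 that loads procollagen for export from the endoplasmic reticulum, was at -0.55 ± 0.24 (adjusted p = 0.515). P3h1, a prolyl hydroxylase, was at 0.42 ± 0.30 (adjusted p = 0.697), a mean set by KO pool 2 (2.77, beside 1.96 in KO pool 1 and 1.96 and 1.95 in WT).

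Among the receptors, 10 of 15 were higher and 5 lower, with a median of 0.29. The 10 include Itga2, picked after its value was seen, which passed the filter on dim genes only through its KO pools. None of the 15 passed in limma, while 5 were higher and 1 lower at an unadjusted p under 0.05. Ddr1, a collagen receptor tyrosine kinase, was at 0.82 ± 0.23 (SE; limma, adjusted p = 0.366), or 0.42 averaged over its 2 probe sets. Itga3, the α3 subunit of a laminin-binding integrin, was at 0.84 ± 0.27 (adjusted p = 0.394). The integrin subunits Itga6 and Itga7, which also bind laminin, were at 1.13 and 1.08, and were picked after their values were seen. Also picked later were the integrin subunit Itgb1 at -0.21 and Sdc2 at -0.51, each with both KO pools below both WT pools. Sdc4, a heparan sulfate proteoglycan of the cell surface, was lower at -0.60 ± 0.19 (adjusted p = 0.394), and passed with the trend option (adjusted p = 0.0294).

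Enzymes that can cleave basement membranes had a median of 0.51 over 10 tested genes, 8 of them higher and 2 lower. None passed in limma, and 4 were higher at an unadjusted p under 0.05. Mmp7 (matrilysin) was at 1.95 ± 0.35 (SE; limma, adjusted p = 0.247; 0.0457 with the trend option), or 1.05 averaged over both its probe sets, from a WT mean near the table median. Mmp12, the macrophage elastase, was at 0.70 ± 0.19 (adjusted p = 0.344), and Mmp14, a membrane-bound activator of Mmp2, at 0.70 ± 0.20 (adjusted p = 0.364). Fibrillar and other interstitial collagens had a median of 0.36 over 13 genes, 11 higher and 2 lower. The gene at that median was Col6a1, picked after its value was seen, which was at -0.006 averaged over its 2 probe sets. None of the 13 passed in limma or with its trend option, and 5 were higher at an unadjusted p under 0.05. Of these Col1a2 was at 0.92 ± 0.21 (adjusted p = 0.297), or 0.70 averaged over its 2 probe sets. Col1a1 was at 0.71 ± 0.19 and Col3a1 at 0.68 ± 0.21. These lists share the 4 arrays with the members, and whether the members differ from them was not tested.

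**Figure D3:**
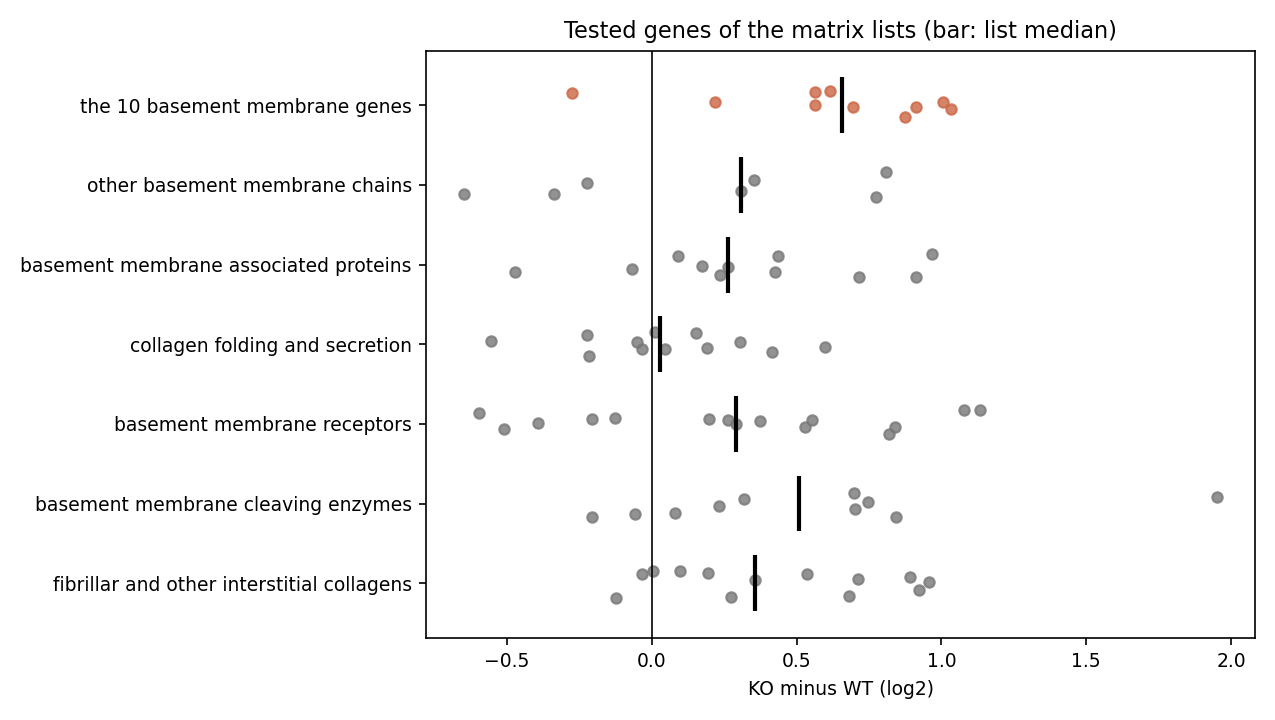
Difference KO minus WT on the log2 scale (horizontal axis) of every tested gene in the member set and 6 related lists, with a bar at each list's median. Medians run from 0.03 for collagen folding and secretion to 0.66 for the 10 members.

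Cell types that make basement membrane in liver include stellate cells, endothelium, bile duct epithelium and smooth muscle, and their markers were read in the same pools. Stellate markers had a median of 0.11 over 11 genes, 7 of them higher (0.06 with arrays centred and 0.07 with quantile normalization). Within that list Pdgfrb was at 1.14 and Cygb at 0.88 while Lrat was at 0.11, Reln at -0.11 and Des at -0.09. Endothelial markers had a median of 0.08 over 16 genes, 12 of them higher (0.04 and 10 with arrays centred, 0.14 and 12 with quantile normalization), with mean levels of 4.00 and 4.01 in WT and 4.09 and 4.25 in KO. Cd34, a marker of capillary and portal endothelium that fibroblasts also carry, was at 1.32, against 0.13 for Pecam1, -0.08 for Stab2 and -0.13 for Clec4g, the latter pair being sinusoidal.

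Smooth muscle and portal fibroblast markers had a median of 0.03 over 9 tested genes, which turned to -0.01 with either other scaling, with Acta2 at 0.01. Cholangiocyte markers had a median of 0.71 over 5 tested genes, 4 of them higher, and mean levels of 1.93 and 1.54 in WT and 2.20 and 2.69 in KO. The 4 include Krt7, which passed the filter on dim genes only through its KO pools. In that list Cdh1 was at 1.62 (0.88 averaged over its probe sets), Epcam at 0.71 and Krt19 at -0.06, and Cftr and Prom1 were below the filter. Epcam, which sets the median, stood at 1.31 and 0.96 in WT and at 1.35 and 2.35 in KO, so its difference rests mostly on KO pool 2. Krt19 was dim, with a WT mean 0.24 above the median of the table. Macrophage markers had a median of 0.30 over 12 genes, with Trem2 at 1.30 and Marco at -2.37. Hepatocyte markers had a median of -0.21 over 10 genes, 7 of them lower, with mean levels of 8.39 and 8.42 in WT and 8.15 and 8.28 in KO. Mesothelial markers had a median of -0.01 over 4 tested genes, with Msln, Wt1 and Muc16 below the filter. No gene of these marker lists passed in limma. At an unadjusted p under 0.05 there were 2 stellate, 1 cholangiocyte and 3 macrophage markers higher, together with Cd34, which is on both the endothelial and the fibroblast list, and 1 macrophage and 1 hepatocyte marker lower. The trend option called Cdh1 as higher (adjusted p = 0.0206) and Marco (0.0181), Cps1 (0.0427) and Hpd (0.0323) as lower. The part of cell composition in the members' differences was not tested.

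**Figure D4:**
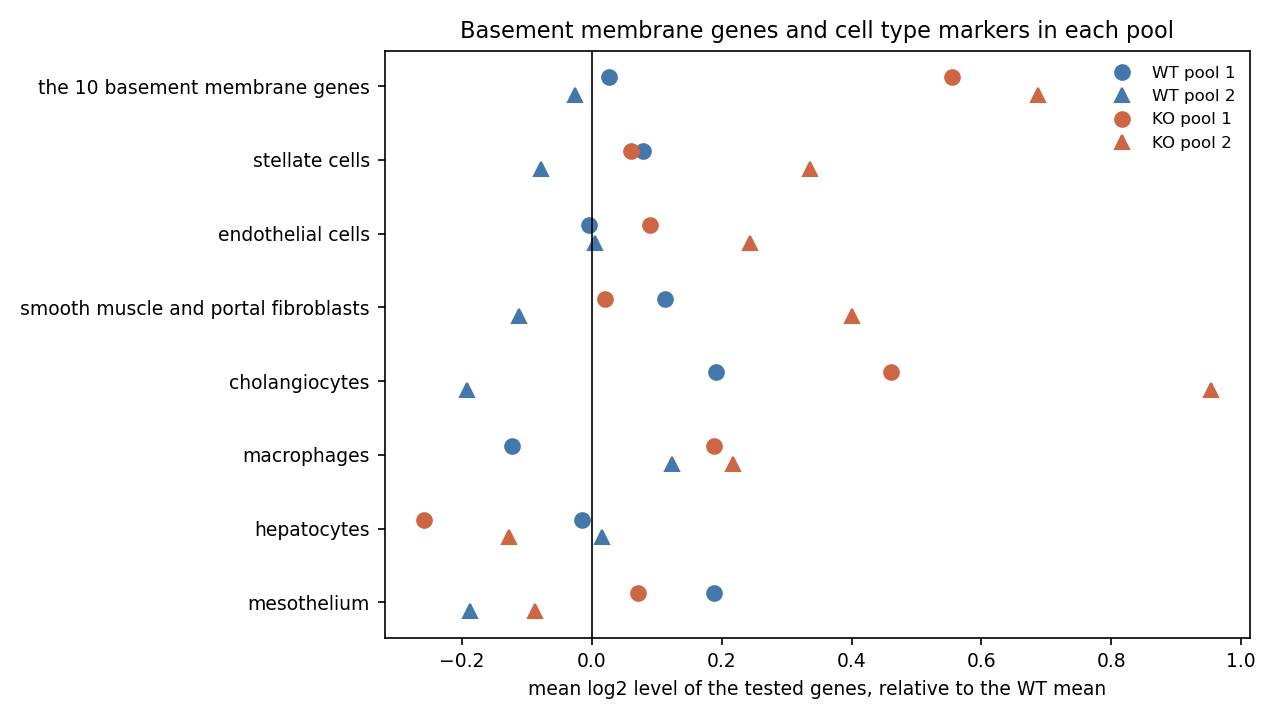
Mean log2 level of the tested genes of each set relative to the WT mean (horizontal axis) in each pool, for the 10 members and 7 lists of cell type markers; circles are pool 1 and triangles pool 2, blue WT and orange KO. The members' KO pools stand at 0.56 and 0.69, while the hepatocyte markers are lower in both KO pools.

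The 5 tested genes outside the set whose levels over the 4 arrays ran closest to the members' mean profile were Bgn, C1qb, Scamp5, Pdgfa and Micu2. Likeness was the Euclidean distance between profiles centred on their own means, in log2 units over 4 arrays, and so selects genes with tight pools and a difference near that of the members. Bgn, the small proteoglycan biglycan, stood at 8.25 and 8.19 in WT and at 8.81 and 8.89 in KO. Its difference was 0.63, or 0.86 averaged over its 2 probe sets. C1qb, a chain of complement C1q, stood at 5.81 and 5.73 in WT and at 6.37 and 6.44 in KO. Pdgfa, a ligand of the platelet-derived growth factor receptors, stood at 2.06 and 2.07 in WT and at 2.57 and 2.72 in KO. With 4 arrays many genes come this close: Hspg2, the nearest member, ranked 230 among the 12458.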

How the data were processed

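Expression was measured on 4 arrays, each with pooled liver RNA (2 pools of WT and 2 of Nrg4 KO mice), from 400 ng of RNA per the labels. The deposited values are log2 probe set levels; the authors named limma, oligo and RMA in the submitters' processing notes, with versions, genome build and annotation not given in the sources used here. Values ran from -1.12 to 11.9 over 41345 probe sets, of which 23521 had 1 gene symbol, 1814 several and 16010 none; only the first were used. The platform's Entrez identifiers matched RefSeq for 23328 probe sets and changed no symbol.

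One probe set a gene was kept, and genes with a mean of at least 0.54, the median of the probe set means, were tested. The genotypes were compared by limma 3.58.1 (lmFit and eBayes, R 4.3.3, 3.67 prior and 2 residual degrees of freedom) with Benjamini-Hochberg adjustment over all 12458 tested genes. Paired members were compared by exact permutation of their log2 ratios over arrays, with intervals from the t distribution. The fit was tested on simulated data: in 20 simulations with 200 altered genes each, it called 76.3% of those shifted by 2 log2 units and 2.31% of those shifted by 1. No detection call, scan date or slide was used here, and the number of arrays limits the precision.

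The members and lists were chosen with earlier results of these data known. Genes named were the members, Nrg4, the 3 genes of each matrix list with the smallest p, marker genes, and the 5 closest profiles; others are said to be picked later. Alternatives were the trend and robust variance models, 2 scalings, 2 filters, probe set means, the replicate number as a block, and leaving out each pool.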

Additional observations from a re-analysis of the deposited data

How the results depend on the processing

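Of 118 differences of single members recomputed under the 12 alternatives, 116 kept their direction and their side of the threshold. This count overstates stability. The variance models, the filters and the replicate block leave a difference itself unchanged, and probe set means altered only Nid1 among the members. Direction could therefore turn only under the 2 scalings, when a pool was left out, or for Nid1. With 6 genes called in the main fit, staying on one side of the threshold says little. Nid1 passed with the trend option (adjusted p = 0.0481), and Nid2 turned to -0.025 without KO pool 2 and was 0.46 without KO pool 1. With the trend option 136 genes and 1 member were called, against 6 and 0. Leaving out each pool in turn left a single pool in a genotype, so only differences are given for those fits. The median over the members was then between 0.60 and 0.79. In those fits Lamc1 ranged from 0.23 without WT pool 2 to 0.90 without WT pool 1, Lamb1 from 0.29 to 0.84 and Lama4 from 0.95 to 0.44 for the same pools. Col18a1 was at -0.18 without KO pool 1 and -0.37 without KO pool 2. The pair ratios ranged between -0.20 and 0.51 for Col4a1 over Col4a2, 1.14 and 1.42 for Col15a1 over Col18a1, 0.37 and 1.02 for Nid1 over Nid2, -0.54 and 0.54 for Lamb1 over Lamc1, and -0.46 and 0.72 for Lama4 over Lamc1; the pair alternatives were added after seeing the data. The labels give both genotypes the replicate numbers 1 and 2 without saying that a number is shared, and same-numbered pools did not deviate together (r = -0.04 across genes, which are not independent). With the replicate block 2 genes and 0 members were called, and the members' median was 0.66. A filter that asked for a mean at least 1 above the median dropped Col15a1 and Nid2. Dim probe sets, Col15a1 and Nid2 among the members, lie near the table median and limit what can be seen.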
